A study of Mus musculus with 4 samples.

Results

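The fibrillar collagens I and III were represented by 8 of the 17664 printed cDNA features: 1 clone of Col1a1, 3 clones of Col1a2 and 4 clones of Col3a1. The members were chosen by gene symbol, as every clone whose single platform symbol was Col1a1, Col1a2 or Col3a1. These genes were picked for description because earlier results on the same log ratios were known, so their values are given as a description and without a test. All 8 clones had a value on all 4 arrays, and 0 of the 412 features with several symbols included any of the 3 genes. The clones of each gene are lettered in the order of their feature numbers.

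The RNA came from right and left ventricles with the septum of 6 male mice, 3 high-salt and 3 low-salt, aged 12 to 13 weeks. All were wild-type mice of a backcross between 129Ola and C57BL/6J with the "1-renin" genotype. All 6 had 1 kidney removed, received deoxycorticosterone acetate (DOCA, a mineralocorticoid that makes the kidney retain sodium) for 5 weeks and ate food with 0.5 mg Na per g, so the low-salt mice carried the surgery and the hormone too. Drinking water held 1% NaCl in the high-salt group and was plain tap water in the low-salt group, and each array set 1 high-salt heart against 1 low-salt heart. Arrays 1, 2 and 3 held pairs 1, 2 and 3, and array 4 held pair 2 again with the dyes exchanged. High-salt RNA carried Cy3 on arrays 1 and 2 and Cy5 on arrays 3 and 4. Arrays 2 and 4 were averaged, which gave n = 3 pairs.

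Values below are the deposited log ratios. Base 2 is assumed, and a positive value is read as more RNA in the high-salt heart, since the titles set high against low salt. That reading is the likely direction, but the sources do not settle it. Over 16471 clones the arrays of opposite dye correlated at r between -0.37 and -0.07, and the arrays of 1 dye orientation at 0.57 and 0.43. For that reason the collagen clone and gene means, the limma counts and the list medians are also given with the sign of arrays 1 and 2 turned, the reading that applies if all deposited ratios ran Cy5 over Cy3. The deposited medians over all features lay between -0.0062 and 0.01. The values are ratios only: no intensity was used here, so neither the level of a clone nor its signal over background can be given. In such bulk tissue, more collagen-producing cells and more collagen RNA per cell cannot be told apart. The tissue label could not be checked either, because a ratio holds no level and only Ryr2 of 8 cardiomyocyte markers was measured.

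Collagens I and III are the main fibril-forming proteins of the heart's interstitial matrix and are made chiefly by cardiac fibroblasts. Chains encoded by Col1a1 and Col1a2 wind together into the type I triple helix, whereas the type III helix consists of Col3a1 chains alone. Type I fibrils are known for tensile stiffness and type III fibrils for a finer, more compliant network, and both accumulate in hearts with pressure-overload fibrosis.

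The 250 bases before the annotated start are shown for Col1a2 and Col3a1, which had clones above 1 on all 4 arrays, from RefSeq on GRCm38.p6. The promoter sequences used held no entry for Col1a1. Capitals mark matches on either strand to CCAAT (the core letters of NF-Y sites), to GGGCGG (those of Sp1 sites) or to TATAAA (those of a TATA box).
Col1a2, chr6:4505368-4505617, plus strand: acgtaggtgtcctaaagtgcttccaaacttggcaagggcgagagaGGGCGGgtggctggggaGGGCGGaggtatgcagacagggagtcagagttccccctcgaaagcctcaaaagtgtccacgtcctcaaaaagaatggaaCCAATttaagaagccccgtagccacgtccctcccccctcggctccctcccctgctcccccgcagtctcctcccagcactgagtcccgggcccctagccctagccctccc
Col3a1, chr1:45311288-45311537, plus strand: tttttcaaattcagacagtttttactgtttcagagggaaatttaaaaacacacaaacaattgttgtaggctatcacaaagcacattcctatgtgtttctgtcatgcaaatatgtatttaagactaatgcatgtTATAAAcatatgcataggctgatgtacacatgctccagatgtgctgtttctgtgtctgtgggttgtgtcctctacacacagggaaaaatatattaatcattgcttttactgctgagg

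The upstream sequences of these genes were unlike in composition. G and C made up 62% of the Col1a2 stretch and 35.2% of the Col3a1 stretch, against a median of 52.4% over 32851 promoters. Col1a2 held GGGCGG at -205 and -188 and CCAAT at -109, and CCAAT on the reverse strand at 1, just past the stretch shown. Col3a1 held TATAAA at -117. In windows of 250 bases before to 50 after the start, 37.4% of all promoters held CCAAT, 35.7% GGGCGG and 13.6% TATAAA, on either strand. None of the matches overlaps another, and a match is a description of letters and not of a bound site.

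The 8 clones fell into 4 with large log ratios and 4 with means near 0. Among the latter, the Col1a1 clone ran from -0.66 to 0.58 over the arrays, so only its mean was near 0. Both chains for which several clones were printed, Col1a2 and Col3a1, had clones of both kinds. Of the 8 clones, 4 were above 0 on all 4 arrays, where 6.65% of all 16471 clones were, and the same 4 were above 1 on all 4 arrays, where 0.0546% of all clones were. None of the 8 was below 0 on all 4 arrays. With the sign of arrays 1 and 2 turned, 1 of the 8 was above 0 on all 4 arrays, against 13% of all clones, and 1 was below 0 on all 4, against 16.8%. Since the genes were picked with this contrast known, nothing is read from these shares.

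**Figure D1:**
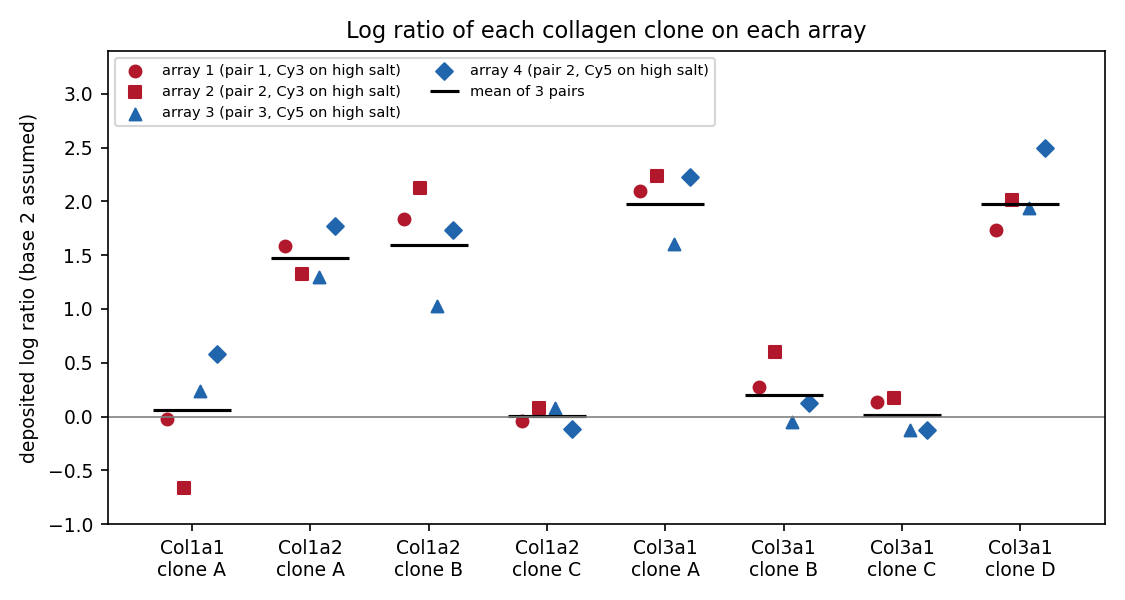
Deposited log ratio (base 2 assumed) of each of the 8 clones on arrays 1 to 4, with the mean of the 3 pairs as a bar. Col1a2 clones A and B and Col3a1 clones A and D lie between 1.03 and 2.50, and the other 4 clones between -0.66 and 0.60.

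Col3a1 clone A (feature 1456) had log ratios of 2.09, 2.24, 1.61 and 2.23 on arrays 1 to 4. All 4 lay far above 0, and the arrays of pair 2 with exchanged dyes differed by 0.0096. Its mean was 1.98 ± 0.33 (SD, n = 3 pairs), a 3.94-fold higher level in high salt if the base is 2, and the largest mean among the 16471 clones.

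Col3a1 clone D (feature 10876) had 1.73, 2.02, 1.93 and 2.50 on arrays 1 to 4. Its mean of 1.98 ± 0.26 (SD, n = 3 pairs) had rank 2, and array 2 minus array 4 gave -0.48. The highest value of clone D was on array 4, whereas that of clone A was on array 2. Between these clones the log ratios differed by 0.22 to 0.36 on an array, with clone D lower on arrays 1 and 2 and higher on arrays 3 and 4.

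The other Col3a1 clones were near 0. Clone B (feature 2126) had 0.28, 0.60, -0.054 and 0.13 on arrays 1 to 4, above 0 on 3 of 4 arrays, with a mean of 0.20 ± 0.22 (SD, n = 3 pairs). Clone C (feature 7056) had 0.14, 0.17, -0.12 and -0.12, with a mean of 0.014 ± 0.13. Clone C was above 0 on both arrays with Cy3 on high salt and below 0 on both with Cy5 on it, so its sign followed the dye. Every value of clones A and D lay above every value of clones B and C, and on each array clone A exceeded clone B by at least 1.64.

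Col1a2, the other chain of type I collagen, showed the same division. Clone A (feature 5393) had log ratios of 1.59, 1.32, 1.29 and 1.77 on arrays 1 to 4 and a mean of 1.48 ± 0.16 (SD, n = 3 pairs), or 2.78-fold with base 2. Clone B (feature 10463) had 1.84, 2.13, 1.03 and 1.73 and a mean of 1.60 ± 0.49, or 3.03-fold. Both were above 1 on every array, and clone B had the widest spread between pairs of the 4 strong clones, its lowest value being that of pair 3.

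Col1a2 clone C (feature 16966) had -0.045, 0.082, 0.081 and -0.12 on arrays 1 to 4. It was above 0 on 2 arrays and below 0 on 2, and its mean was 0.0058 ± 0.066 (SD, n = 3 pairs), the smallest SD of the 8 clones. Clones A and B differed by 0.34 on average over the 4 arrays, and clone C differed from them by 1.49 and 1.68. The strong Col1a2 clones had rank 5 (clone B) and rank 9 (clone A) by mean among all clones.

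Col1a1, which encodes the chain that pairs with that of Col1a2, had a single clone (feature 8652). Its log ratios were -0.021, -0.66, 0.23 and 0.58 on arrays 1 to 4. It was below 0 on both arrays with Cy3 on high salt and above 0 on both with Cy5 on it. Arrays 2 and 4 hold the same pair of hearts, and array 2 minus array 4 gave -1.25. Over all clones the median absolute difference between these arrays was 0.20, and 5% of clones exceeded 1.05. Its mean of 0.057 ± 0.15 (SD, n = 3 pairs) averages opposite values of pair 2, so the small SD does not show how far its arrays lay apart. In array 4 it ranked 421 of 16471 from the top, and in array 2 it ranked 16105.

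Arrays 2 and 4, which hold pair 2 in both orientations, differed less in the other clones. Array 2 minus array 4 gave -0.44 for Col1a2 clone A, 0.39 for clone B and 0.20 for clone C. In Col3a1 clones A to D it gave 0.0096, 0.47, 0.29 and -0.48. Means by orientation do not isolate the dye: with Cy3 on high salt they hold pairs 1 and 2, with Cy5 pairs 2 and 3. For Col1a2 clone A the mean was 1.46 with Cy3 on high salt and 1.53 with Cy5 on it. Clone B of that gene stood at 1.98 with Cy3 and 1.38 with Cy5. Col3a1 clone A stood at 2.17 with Cy3 and 1.92 with Cy5, and clone D at 1.88 and 2.22 in the same order. The difference between these means was therefore positive in some strong clones and negative in others, and in each it was smaller than the clone's mean. In the clones near 0 it was larger than the clone's mean. Col3a1 clone B stood at 0.44 with Cy3 and 0.038 with Cy5, and clone C at 0.16 and -0.12. Col1a2 clone C stood at 0.019 and -0.019 in the same order. Over the 8 clones, chosen with their values known, arrays 2 and 4 correlated at r = 0.86, where all 16471 clones gave -0.07. A high r follows from the split into strong clones and clones with means near 0, so nothing is read from it.

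Averaged over its clones, Col1a2 had a mean log ratio of 1.03 ± 0.20 (SD, n = 3 pairs) and Col3a1 1.04 ± 0.19. In pairs 1 to 3 Col1a2 stood at 1.13, 1.15 and 0.80, and Col3a1 at 1.06, 1.22 and 0.84. Pair 3 was the lowest for both. These gene values describe none of the clones behind them: the SD between clone means was 0.89 for Col1a2 and 1.08 for Col3a1, several times the SD between pairs. The clone chosen decides the value, from 0.0058 to 1.60 for Col1a2 and from 0.014 to 1.98 for Col3a1.

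**Figure D2:**
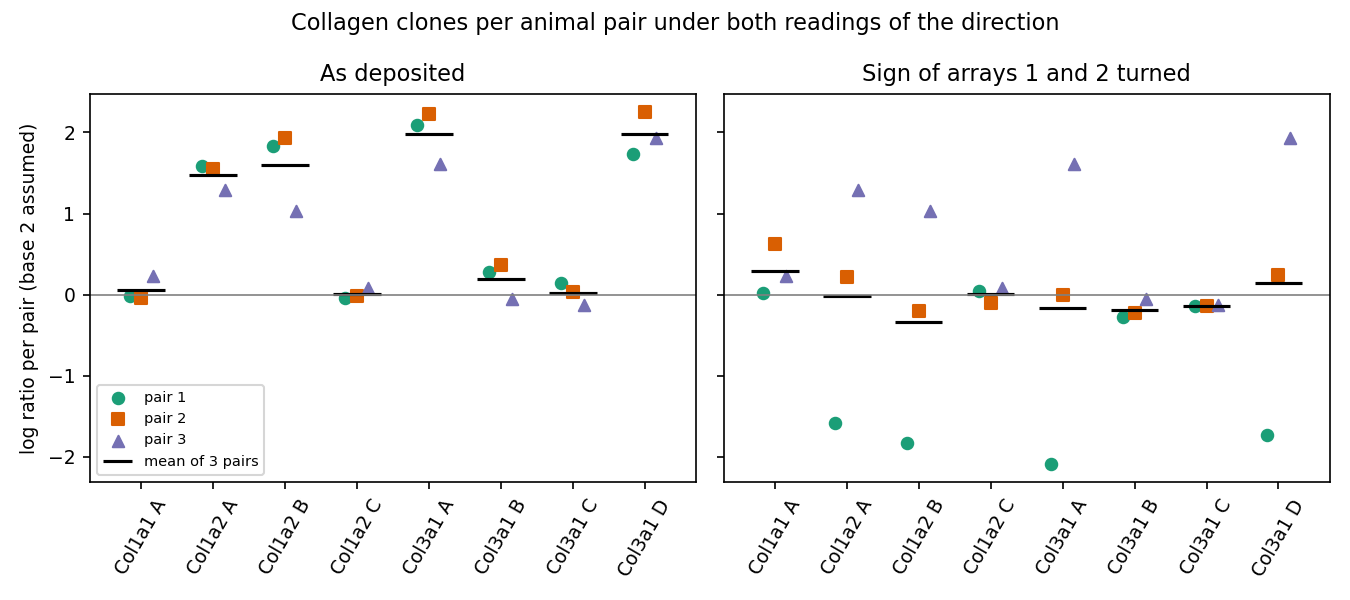
Log ratio per animal pair (base 2 assumed) of each clone, as deposited on the left and with the sign of arrays 1 and 2 turned on the right, with the mean of the 3 pairs as a bar. Left, the strong clones have all pairs above 1. Right, the same clones run from below -1.5 in pair 1 to above 1 in pair 3, and their pair 2 values average opposite values of arrays 2 and 4.

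With the sign of arrays 1 and 2 turned, the strong clones no longer had 1 direction. Each was then below 0 on both arrays with Cy3 on high salt and above 0 on both with Cy5 on it. Its pair 2 value therefore averages opposite values, for Col3a1 clone A -2.24 on array 2 and 2.23 on array 4. Col3a1 clone A stood at -2.09, -0.0048 and 1.61 in pairs 1 to 3, with a mean of -0.16 ± 1.86 (SD, n = 3 pairs), and clone D had a mean of 0.15 ± 1.84. Col1a2 clones A and B had means of -0.024 ± 1.46 and -0.33 ± 1.44. The gene means became -0.12 ± 0.97 for Col1a2 and -0.085 ± 0.95 for Col3a1. Under this reading the clones with 1 sign were others: Col1a1 was above 0 on all 4 arrays, at 0.021, 0.66, 0.23 and 0.58 with a mean of 0.29 ± 0.31, and Col3a1 clone C was below 0 on all 4, with a mean of -0.14 ± 0.012. Which chains are higher in high salt therefore depends on the reading.

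The means of all 16471 clones had a median of 0.0010, with 5% of clones below -0.24 and 5% above 0.29. Col3a1 clone B, at 0.20, lay within this range, as did the means of Col1a1, Col1a2 clone C and Col3a1 clone C. A mean of at least 1 was reached by 35 clones, among them the 4 strong collagen clones. Across all clones limma called 0 at an adjusted p under 0.05, or 0% of the clones tested, with a smallest adjusted p of 0.43, and 858 clones (464 higher, 394 lower) had an unadjusted p under 0.05. With arrays 1 and 2 turned, limma also called 0 clones, with a smallest adjusted p of 0.11, and 3096 clones (1201 higher, 1895 lower) had an unadjusted p under 0.05.

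**Figure D3:**
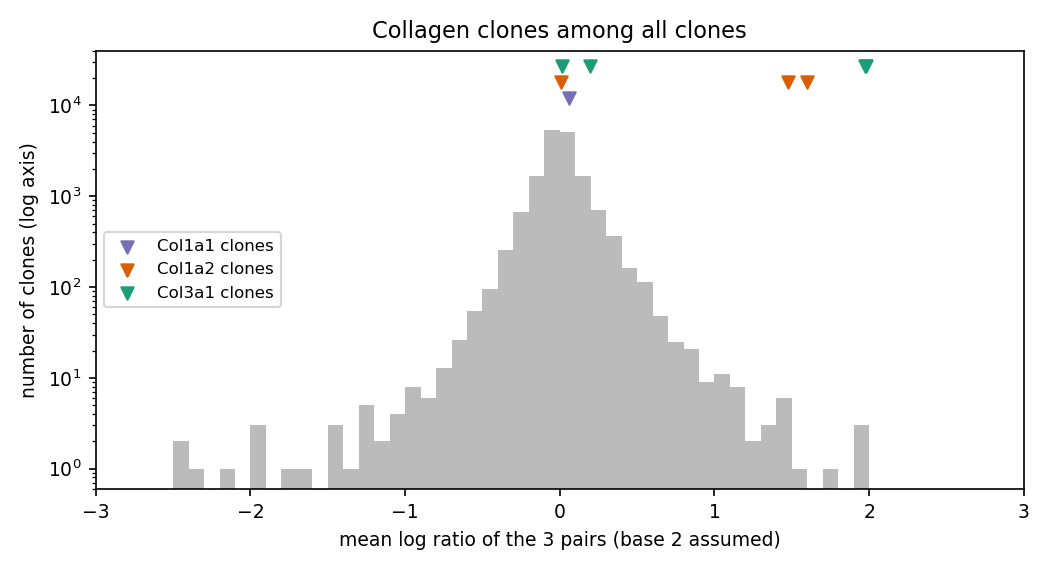
Number of clones (log axis) by mean log ratio of the 3 pairs (base 2 assumed), for all 16471 clones in bins of 0.1. Triangles mark the 8 collagen clones: the Col3a1 clones A and D coincide at 1.98, at the right end of the distribution, and 4 clones lie within its centre.

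On each single array the strong clones stood near the top. Col3a1 clones A and D ranked between 5 and 69 of 16471 on the 4 arrays. Col1a2 clone A ranked 97, 174, 18 and 10 and clone B 52, 39, 44 and 11 on arrays 1 to 4. Their ranks were thus nearer the top on arrays 3 and 4 for Col1a2 clone A and Col3a1 clones A and D.

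The print positions of the clones were compared because neighbouring spots share a pin and a place on the slide. Print blocks were taken as 32 equal runs of feature numbers, on the assumption that these numbers follow the print order. The 8 clones lay in 8 different blocks of the 32. The block medians on the 4 arrays lay between -0.014 and 0.012 for the strong clones and between -0.019 and 0.017 for the others. Next to the strong clones, 15 features up to 2 feature numbers away had means between -0.45 and 0.37, with a median of 0.018. Beside the other 4 clones, 15 such features lay between -0.29 and 0.23, with a median of 0.0098. Whether print position had a part in the values of the strong clones was not tested.

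The division between clones was wide when set beside other genes. Of 981 genes with at least 3 clones, 8 (0.815%) had clone means at least 1 apart, and the median range was 0.19. Col3a1, with a range of 1.96, had rank 2 and Col1a2, with 1.59, rank 4. Since the collagen values were known beforehand, this order is a description. All clones of a gene share its symbol in the platform annotation, and which stretch of the transcript each clone holds was not analysed here.

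**Figure D4:**
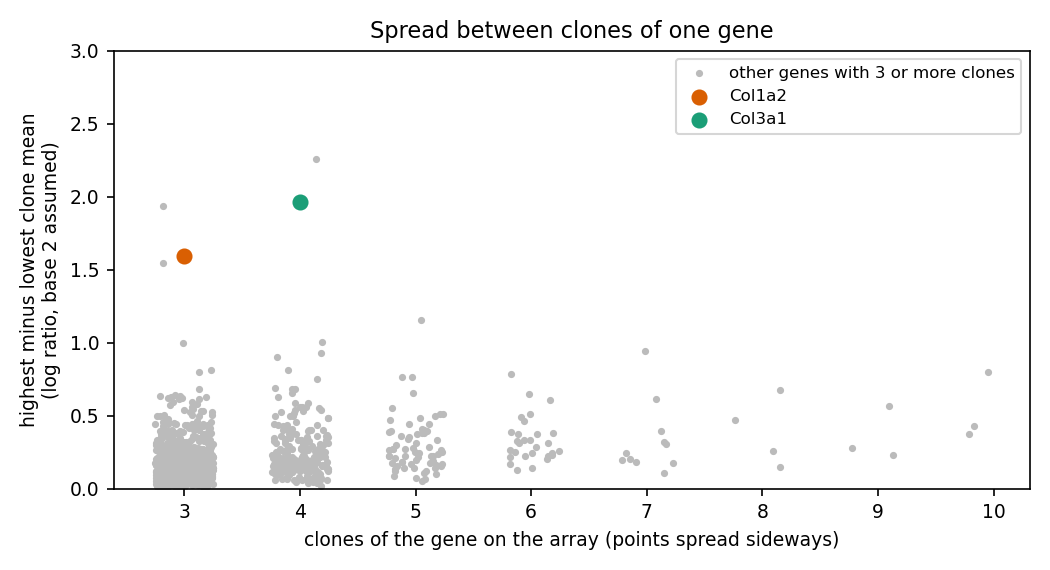
Highest minus lowest clone mean (log ratio, base 2 assumed) against the number of clones, for 981 genes with at least 3 clones. Col1a2 at 1.59 and Col3a1 at 1.96 lie well above the median of 0.19.

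Heart weight relative to body weight differed in the same pairs. The cardiac weight index was 4.89 mg/g in the high-salt mouse and 4.07 mg/g in the low-salt mouse of pair 1, 4.89 and 4.05 mg/g in pair 2, and 4.71 and 4.01 mg/g in pair 3. Pair 3 had the smallest difference, 0.70 mg/g, and also the lowest value of Col1a2 clones A and B and Col3a1 clone A. Col3a1 clone D was lowest in pair 1. Pair 3 was read on array 3 alone, with Cy5 on high salt, and pair 1 on array 1 alone, with Cy3. A difference between these pairs therefore cannot be told apart from one of dye or array. With 3 pairs no relation was tested.

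The genes most like each collagen were taken by Euclidean distance over the 4 arrays among 8103 other genes, with clones of a gene averaged. These averages join strong and flat clones. As averages, Col1a2 and Col3a1 lay 0.12 apart, closer than either to any other gene. The strong clones of Col1a2, however, differed from those of Col3a1 by 0.36 to 0.55 in mean absolute difference over the arrays. That measure is not the Euclidean distance, so these values cannot be set directly beside 0.12. By Euclidean distance Col1a1 lay 2.31 from the average of Col1a2 and 2.36 from that of Col3a1. Next to Col1a2 came Sparc, a collagen-binding matricellular glycoprotein, at a distance of 0.37, then Vim, the mesenchymal intermediate filament vimentin, at 0.51. Tnc, Col6a1 and Clca3a1 followed at 0.63, 0.65 and 0.69. The same 5 genes were nearest to Col3a1, with Sparc at 0.47 and Clca3a1 at 0.68. Within a distance of 0.5 there was 1 gene for Col1a2 and 1 for Col3a1, against 105 for Col1a1, whose nearest were Bag5, Polr2b and Hnrnph2.

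The genes that modify, assemble, bind and degrade fibrillar collagen were described from lists chosen with earlier results known. Over 8106 genes, 7.01% were above 0 and 7.75% below 0 on all 4 arrays as deposited, the median mean was -0.00026, and 0 passed the limma test at an adjusted p under 0.05. No gene of any list passed. With arrays 1 and 2 turned, 12.7% of genes were above 0 on all 4 arrays.

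Inside the cell, procollagen chains are hydroxylated and folded by dedicated enzymes and chaperones. Of 21 such genes 10 were measured, 3 were above 0 on all 4 arrays and 0 below, and their median was 0.19. Serpinh1, the collagen chaperone HSP47, had log ratios of 0.62, 1.23, -0.085 and 0.24 on arrays 1 to 4 and a mean of 0.42 ± 0.44 (SD, n = 3 pairs), the highest of the list. Mia3, which loads procollagen into export carriers, was the lowest at -0.028 ± 0.29. The list median was -0.064 with the arrays turned.

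Outside the cell, the propeptides are cut off and the fibrils are cross-linked. Of 14 genes 3 were measured, none of them a lysyl oxidase. Pcolce, which enhances removal of the C-propeptide, stood at 1.36, 0.79, 0.39 and 0.41 on arrays 1 to 4, all above 0, with a mean of 0.78 ± 0.51 (SD, n = 3 pairs). Bmp1, the protease that makes this cut, was near 0 at 0.071 ± 0.11. The median of the 3 was 0.22 as deposited and -0.13 with the arrays turned.

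Among the other fibril-forming and fibril-associated collagens, 8 of 17 were measured and 3 were above 0 on all 4 arrays, with a list median of 0.017. Col5a1, a chain of type V collagen that starts fibril assembly with type I, had 1.00, 1.99, 0.58 and 0.95 on arrays 1 to 4 and a mean of 1.01 ± 0.45 (SD, n = 3 pairs). Its partner chain Col5a2 was near 0 at -0.0023 ± 0.33. Col6a1, a chain of the beaded-filament type VI collagen, was the highest at 1.05 ± 0.52, and Col2a1, the cartilage collagen, the lowest at -0.11 ± 0.21. With the arrays turned, the means of Col5a1 and Col6a1 were -0.31 and -0.42, and the list median was -0.16.

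The basement membrane and other collagens stood near 0, with 5 of 14 measured, 2 above 0 on all 4 arrays and a median of 0.028. Col4a1, a basement membrane collagen chain, was the highest at 0.67 ± 0.40 (SD, n = 3 pairs) and Col18a1 the lowest at 0.024 ± 0.018. Turning the arrays gave a median of -0.021.

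Fibril-binding matrix proteins had the highest list median, 0.58. Of 17 genes 9 were measured, all 9 had a mean above 0 and 5 were above 0 on all 4 arrays. Sparc stood at 1.44, 1.16, 0.72 and 0.95 on arrays 1 to 4, with a mean of 1.07 ± 0.36 (SD, n = 3 pairs). Its 3 clones had means between 0.50 and 1.50, so none was flat as in the collagens. Bgn, the proteoglycan biglycan, had the highest mean, 1.50 ± 1.05, of which pair 1 at 2.68 made the largest part. Fn1, fibronectin, stood at 0.58 ± 0.18, Dcn, decorin, at 0.13 ± 0.16 and Tnxb, tenascin X, at 0.068 ± 0.16. With the arrays turned, the list median was -0.28 and 1 gene was above 0 on all 4 arrays.

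Genes of collagen breakdown had a median of 0.11, with 10 of 13 measured, 3 above 0 and 1 below 0 on all 4 arrays. Timp3, an inhibitor of matrix metalloproteinases, was the highest at 0.65 ± 0.38 (SD, n = 3 pairs) and Ctsl, a lysosomal protease, the lowest at -0.17 ± 0.10. Turning the arrays gave a median of -0.0029.

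Known regulators of collagen transcription lay close to 0. Of 18 genes 15 were measured, with a median of 0.058, 1 above 0 and 1 below 0 on all 4 arrays. Tgfb1, the main profibrotic cytokine, stood at 0.62, 0.46, -0.62 and 0.22 on arrays 1 to 4 with a mean of 0.11 ± 0.65 (SD, n = 3 pairs). Tgfb2 was the highest at 0.28 ± 0.28 and Nfyc, a subunit of the CCAAT-binding factor NF-Y, the lowest at -0.19 ± 0.068. With the arrays turned, the list median was -0.023.

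Of 10 collagen receptors 5 were measured, 1 was above 0 and 1 below 0 on all 4 arrays, and the median was 0.075. Itgb1, the integrin β chain shared by the collagen-binding integrins, stood at 0.19 ± 0.0087 (SD, n = 3 pairs), Ddr2, a collagen-activated tyrosine kinase of fibroblasts, at 0.11 ± 0.19 and Itga2, the integrin α2 chain, at -0.16 ± 0.12. With the arrays turned, the median was 0.0027.

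**Figure D5:**
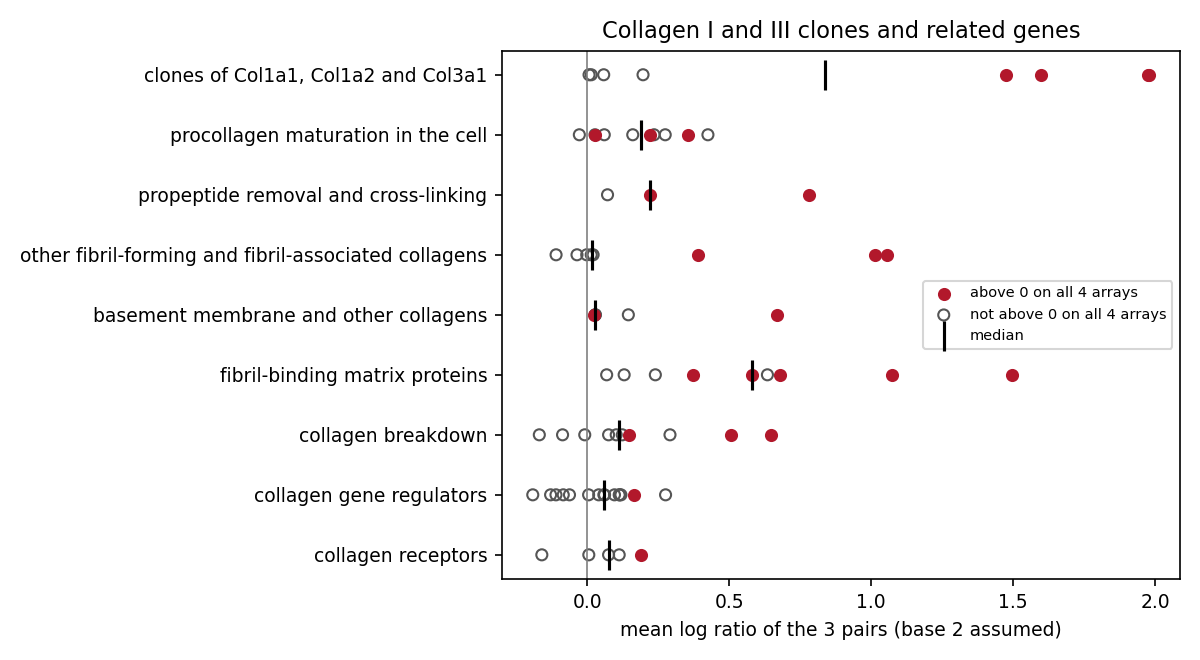
Mean log ratio of the 3 pairs (base 2 assumed) of the 8 collagen clones (top row) and of the measured genes of each list. Filled points are above 0 on all 4 arrays as deposited and bars are medians: the 4 strong collagen clones lie from 1.48 to 1.98, and the list medians from 0.017 to 0.58.

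Markers of cells that ventricle pieces can hold were set beside the collagens. Of 13 fibroblast markers outside the collagens 9 were measured, 8 had a mean above 0 and 4 were above 0 on all 4 arrays, with a median of 0.18 over gene means and of 0.34, 0.28 and 0.33 in pairs 1 to 3. On all 4 arrays 1 was below 0, Tcf21. Dcn, Ddr2 and Lum are counted here and in the lists above. Turned, the median of the fibroblast markers was -0.0061. Vim was the highest at 0.81 ± 0.21 (SD, n = 3 pairs) and Tcf21, a fibroblast transcription factor, the lowest at -0.041 ± 0.025. Smooth muscle and pericyte markers had 5 of 10 measured, of which 4 had a mean above 0, with a median of 0.13, from Mylk at -0.059 to Mcam at 0.42. Turned, the median of the smooth muscle and pericyte markers was -0.15. Endothelial markers had 5 of 8 measured and a median of -0.0064, leukocyte markers 2 of 8 and a median of 0.030, blood markers 2 of 6 and a median of -0.019, and adipocyte markers 4 of 5 and a median of 0.12. Turned, these medians were -0.045 for endothelial, 0.19 for leukocyte, 0.0070 for blood and 0.011 for adipocyte markers. The part of any of these cells in the collagen values was not tested.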

How the data were processed

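The deposited table holds 1 log ratio per feature and array, from 2 dye channels per the labels, and its values are treated here as log2. How the ratios were corrected for background and normalized, their log base and their direction: each is not given in the sources used here. Base 2 is assumed, and with another base all values scale by 1 factor. Clones were printed with 32 pins, and 50 µg of total RNA per dye was reverse transcribed with oligo(dT), per the labels' protocols. Of 17664 features, 457 had no value on any array. A further 736, at 23 print positions that recur without a gene name in all 32 blocks, were left out as presumed control spots, which left 16471 clones. This was decided with earlier results known. Symbols came from the platform annotation (12563 features with 1 symbol, 412 with several and 4689 with none), and the gene IDs of all 8 collagen clones were found in the RefSeq table.

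Arrays 2 and 4 (pair 2) were averaged before any mean. Their dye swap balances that of pairs 1 and 3, so a clone's dye effect cancels in the mean and stays in the spread. The 3 pairs were tested against 0 with limma 3.58.1 (intercept only, eBayes, Benjamini-Hochberg adjustment) under R 4.3.3, over all clones and over genes. The fit was tested on simulated data with shifts larger than any clone mean seen here. Its power for shifts of the observed size was not tested. Precision is limited by having 4 arrays. The members and lists were chosen with earlier results of these data known. Genes named from the lists were the highest and the lowest of each and, whatever their values, a fixed set (P4ha1, Serpinh1, Lox, Bmp1, Col5a1, Col5a2, Sparc, Dcn, Tgfb1, Ccn2, Ddr2, Itgb1, Vim and Fn1) where measured. Genes alike were the 5 nearest to Col1a2 and Col3a1 and the 3 nearest to Col1a1.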

Additional observations from a re-analysis of the deposited data

How the results depend on the processing

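With the sign of arrays 1 and 2 turned, the mean log ratio of Col1a1 was 0.29, of Col1a2 -0.12 and of Col3a1 -0.085. Col1a2 clones A and B and Col3a1 clone A then stood at -0.024, -0.33 and -0.16, Col3a1 clones B and C at -0.19 and -0.14, and 1 clone in place of 4 was above 0 on all 4 arrays. Taking pair 2 from array 2 alone gave -0.15 for Col1a1, and from array 4 alone 0.27. With the median clone Col1a2 was 1.48, with the highest clone Col1a2 was 1.60 and Col3a1 1.98, and with the lowest clone, a choice added after seeing the data, 0.0058 and 0.014. Centring arrays or print blocks and scaling arrays moved each gene and clone mean by less than its SD over pairs. Leaving out 1 of 3 pairs can never move a mean by as much as that SD, so it shows no stability. Means near 0 still changed: Col1a1 (0.057) was 0.096 without pair 1, 0.11 without pair 2 and -0.030 without pair 3, Col1a2 clone C was -0.032 without pair 3 and Col3a1 clone C -0.048 without pair 1. With pair 2 from array 4 alone these clones stood at -0.028 and -0.035, and with arrays scaled Col1a2 clone C at -0.0065. Without pair 1 or pair 3 the dyes are unbalanced and a dye effect does not cancel. Limma called 0 clones under every alternative run, with 309 to 3096 at an unadjusted p under 0.05. It also called 0 with all features kept, with dye as a covariate and with genes in place of clones. With 3 pairs and no intensities, a bright and a dim clone could not be told apart.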

Other observations

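Beside the 4 strong collagen clones, 5 clones were above 1 on all 4 arrays as deposited. They were 1 clone each of Hmox1 (mean 1.78), Col4a1 (1.39) and Lcn2 (1.30) and 2 clones without a gene symbol. The unnamed feature 1528 had log ratios of 2.25, 1.47, 2.00 and 1.80 on arrays 1 to 4 and a mean of 1.96 ± 0.31 (SD, n = 3 pairs), a mean between those of the strong Col3a1 and Col1a2 clones. The unnamed feature 12073 had 1.44, 1.19, 1.45 and 1.64, with a mean of 1.43 ± 0.020. These clones were singled out after their values were seen.

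Other genes also had clones far apart. Col4a1, a chain of basement membrane collagen, had clones at 1.39 ± 0.33 and 1.15 ± 0.79 (SD, n = 3 pairs) and another at -0.54 ± 1.01, whose value on array 1 was -1.68. Mtdh had the widest range of all genes with at least 3 clones, 2.26, and that range came from 1 clone on array 1 at -5.94, while its other 3 clones had means between 0.020 and 0.35. In Col1a2 and Col3a1, unlike in Mtdh, the strong and the flat clones lay apart on each of the 4 arrays. The lowest Col4a1 clone also lay below its other clones on each array, by least on array 3, at -0.18 against 0.24 and 1.01. These genes too were named after their values were seen.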
